A study of Mus musculus with 6 samples.

Results

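Skeletal muscle makes reactive oxygen species during contraction and fuel oxidation, and it holds a layered set of enzymes that remove them. Superoxide dismutases turn superoxide into hydrogen peroxide, which glutathione peroxidases and peroxiredoxins then reduce. Glutathione and thioredoxin supply the electrons for these reactions and are recycled with NADPH. Glutathione transferases join glutathione to reactive lipid products and foreign compounds, and many genes of the system are targets of the transcription factor NRF2 (gene Nfe2l2).

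The antioxidant and glutathione genes described here are a list of 36, chosen by name and function, with earlier results of these data known. A probe set that carries only the gene's own symbol was found for 34 of them, and all 34 passed the filter on dim genes, among 19938 named genes in all and 16487 tested. For Prdx5 and Prdx6 no value was analysed here. Where a gene had several probe sets, the brightest on average stood for it.

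Gastrocnemius, a calf muscle, was taken from male mice aged 12 weeks, and its total RNA was hybridised to an Affymetrix whole-transcript array, 1 array per sample. The study compared 3 wild type samples with 3 samples homozygous for a Sparc knockout. Sparc encodes a secreted matricellular glycoprotein that binds collagen, and the series set out to compare metabolic gene expression between the genotypes. Both groups carry the strain label B6;129S-Sparctm1Hwe/J, and the labels name no tissue-specific promoter or Cre and give no litter. Each array was taken as 1 mouse, since the design text speaks of each mouse. The values are normalized intensities, given below as log2, and a change is knockout minus wild type on that scale with its standard error (SE) from limma. Adjusted p-values are Benjamini-Hochberg values from limma over all 16487 genes, with 0.05 as the threshold, and only genes past it are said to have risen or fallen.

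Sparc itself was 43.9-fold lower in the knockouts, at 11.73 to 11.87 in wild type and 5.83 to 6.74 in knockout arrays. The 10 skeletal muscle fibre markers read between 10.85 and 13.48 on every array. Of these, 6 were lower on every knockout array than on every wild type array (among them Ckm, creatine kinase, at -0.28 ± 0.08) and 2 were higher (Ttn, titin, at 0.47 ± 0.15, and Mb, myoglobin, at 0.17 ± 0.08), with 0 past the threshold. Over all genes, the median SD was 0.0912 in wild type and 0.163 in knockout arrays. In a principal component analysis, 46.7% of the variance lay on the first axis. Knockout array 2 had a score of 2.45 on it, between the wild types (-16.78 to -15.77) and the other knockouts (19.83 and 26.51). Values without knockout array 2 are therefore given beside the results that move with it. As it is the knockout nearest to the wild types, leaving it out tends to widen the differences, and such values are a description only.

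Binding of NRF2 is known at antioxidant response elements, whose core can be written TGACNNNGC. RefSeq start sites of build GRCm38.p6 were available for 30 of the 36 genes, and the core was searched on both strands in the 250 bases before each start site. It was found for 7 of the 30 genes (23.3%) and for 11.5% of all 27025 genes with a start site in the table. The 7 were Gclm, Gstm5, Gstm7, Mgst1, Prdx1, Sod1 and Txnrd1. The longer form TGACTCAGC, which is one case of the core, was found in 1 of the 30, Prdx1, and in 0.426% of all genes. The sequences below show a pair of glutathione transferase genes from the same cluster, Gstm5 with the core and Gstm2 without it in these letters (150 bases before the start site), and the matches of Prdx1 and Gclm with 20 bases on each side. They run 5′ to 3′ on the gene's strand, and capitals mark the core or its reverse complement.
Gstm5, chr3:107895704-107895853, plus strand: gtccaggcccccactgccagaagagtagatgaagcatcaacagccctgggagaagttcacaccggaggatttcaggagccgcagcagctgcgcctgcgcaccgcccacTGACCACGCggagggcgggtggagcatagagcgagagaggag
Gstm2, chr3:107986421-107986570, minus strand: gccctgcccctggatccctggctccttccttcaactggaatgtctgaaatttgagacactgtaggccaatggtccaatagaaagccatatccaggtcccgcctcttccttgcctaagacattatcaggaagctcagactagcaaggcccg
Prdx1, chr4:116685446-116685494, plus strand: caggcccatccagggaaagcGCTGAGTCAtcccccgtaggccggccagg
Gclm, chr3:122245403-122245451, plus strand: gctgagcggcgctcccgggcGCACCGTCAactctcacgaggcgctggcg
A match describes the letters only. The changes of the 7 genes with the core lay between -0.32 and 0.04, and none of them passed the threshold. Of the genes with the largest changes, Nqo1, Gstk1 and Gstm2 had a start site in the table and no match in these 250 bases. Gsta4, Hmox1, Sod3, Prdx6, Gsr and Gclc had no start site in the table, so they were not searched. Bases further upstream were not searched.

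The members that fell in knockout muscle were glutathione transferases, and no gene of the other antioxidant roles passed the threshold. Of the 34 genes tested, 2 fell (Gsta4 and Gstm2) and 0 rose past the threshold, which is 5.88% of the members. Of all genes tested, 0.995% passed, with 0.673% lower and 0.321% higher. With no adjustment, at p under 0.05, there were 8 lower and 4 higher members (35.3%), where 10.3% and 8.16% of all genes were lower and higher (18.4% together). The 3 knockout arrays lay wholly below the 3 wild type arrays in 14 members and wholly above them in 3. That is 50% of the members, against 25% of all genes tested, of which 13.8% were below and 11.1% above. The median change was -0.16 over the members and 0.00 over all genes. Both figures are a description, since the members were chosen with earlier results of these data known.

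**Figure D1:**
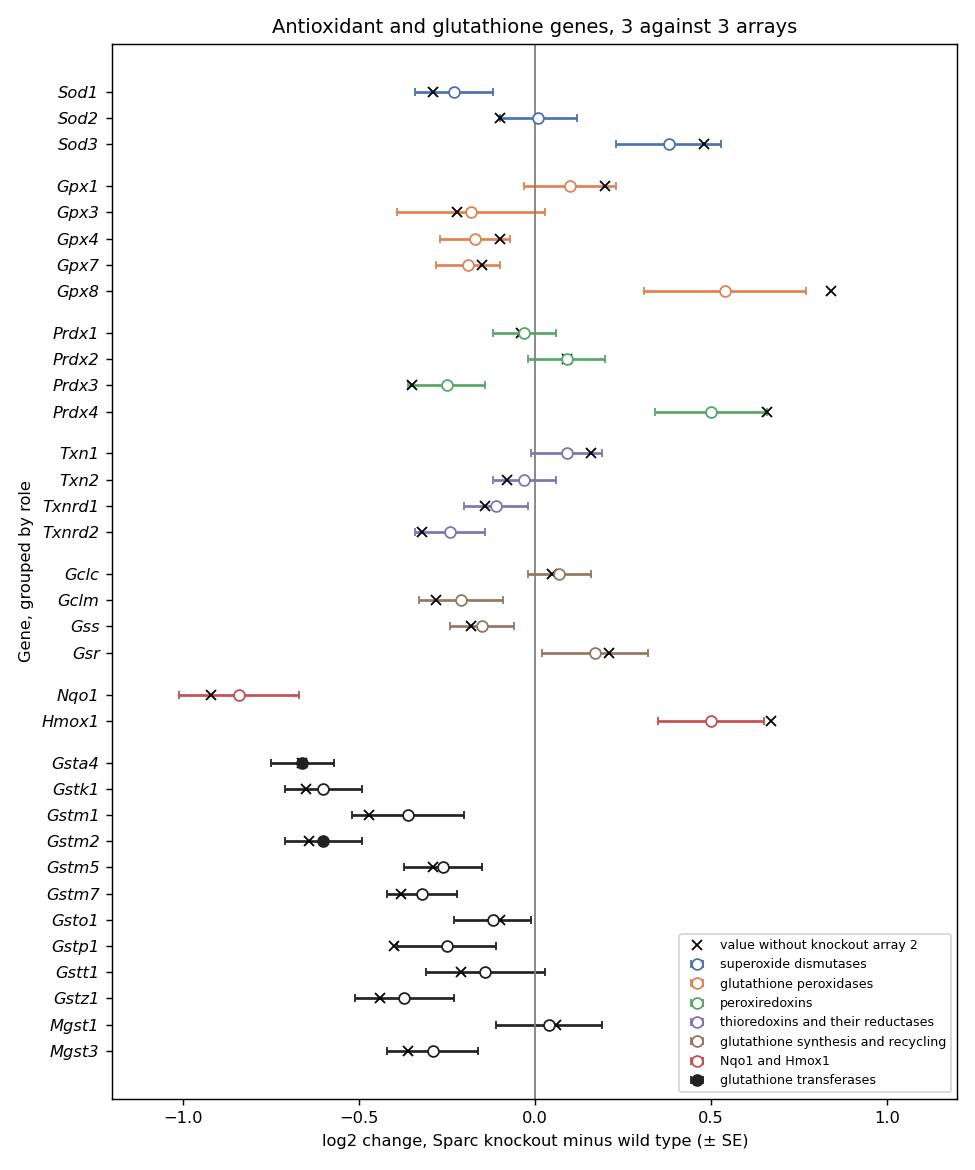
Log2 change (knockout minus wild type, ± SE, 3 arrays in each group) of the 34 genes, grouped by role on the vertical axis; filled circles passed the adjusted threshold, open circles did not, and crosses give the value without knockout array 2. The 12 transferases lie left of 0 except Mgst1 at 0.04, and the filled circles are Gsta4 at -0.66 and Gstm2 at -0.60.

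Among the 12 transferases, 11 had a negative change, with a median of -0.30 and a range of -0.66 to 0.04. The other 22 members had a median of -0.03, with 12 negative and 10 positive changes. In 7 of the 12 transferases every knockout array was below every wild type array, and in 0 above, where 13.8% and 11.1% of all genes were so separated. The 7 were Gsta4, Gstk1, Gstz1, Gstm1, Gstm2, Gstm5 and Gstm7. The Gstm genes among them share a cluster and, as described below, are not taken as independent. Over the 12 genes the mean deviation from the wild type mean was -0.27, -0.23 and -0.48 in knockout arrays 1, 2 and 3, so that knockout arrays 1 and 2 were alike and array 3 was lowest. For the 10 muscle fibre markers the mean deviation was -0.10, 0.06 and 0.13 in the same arrays, and their summed intensity was 68490 to 69140 in wild type and 61880 to 69020 in knockout arrays. The erythroid marker Alas2 had a change of -0.84 ± 0.19 without overlap (adjusted p = 0.0788, limma), and Slc4a1, the only other erythroid marker tested, -0.13 ± 0.12. The sum of both was 116.2 to 141.4 in wild type and 78.71 to 105 in knockout arrays, and 0 markers of either list were at 0. The part of these cells in the transferase levels was not tested. In bulk muscle, fewer cells of a type and less RNA per cell cannot be told apart.

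Gsta4 encodes an alpha-class transferase that conjugates 4-hydroxynonenal, a product of lipid peroxidation. Its log2 level was 8.04, 7.91 and 8.00 in wild type arrays 1, 2 and 3 and 7.42, 7.32 and 7.23 in knockout arrays 1, 2 and 3. The groups were far apart, and each group spanned less than the gap between them. The gene fell 1.58-fold (change -0.66 ± 0.09 SE, adjusted p = 0.0205). It kept an adjusted p under the threshold in 12 of 15 alternative settings. The exceptions were the fits without wild type array 1, 2 or 3 (adjusted p = 0.132, 0.112 and 0.154), in which the change was -0.63, -0.70 and -0.65.

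Gstm2 is a mu-class transferase known to be expressed in muscle. Wild type arrays 1, 2 and 3 read 9.09, 9.18 and 9.39, and knockout arrays 1, 2 and 3 read 8.66, 8.70 and 8.51. The lowest wild type array was above the highest knockout array. Gstm2 fell 1.52-fold (change -0.60 ± 0.11 SE, adjusted p = 0.0449). Its change stayed between -0.66 and -0.52, but the adjusted p was above 0.05 in 8 of the 15 settings, at 0.0546 to 0.227. These were median centring, the fit without the variance trend, the replicate block, and the fits without any 1 array other than knockout array 2.

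Gstk1, the kappa-class transferase of mitochondria and peroxisomes, missed the threshold narrowly. Its values were 9.53, 9.44 and 9.37 in wild type and 8.95, 8.96 and 8.64 in knockout arrays 1 to 3. No array of one genotype reached the range of the other. The change was -0.60 ± 0.11 (SE, adjusted p = 0.0503), with -0.65 and an adjusted p of 0.0239 without knockout array 2. Over the 15 settings the change lay between -0.65 and -0.49. Gstk1 passed in 4 of them, and its adjusted p was 0.22 at the highest.

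**Figure D2:**
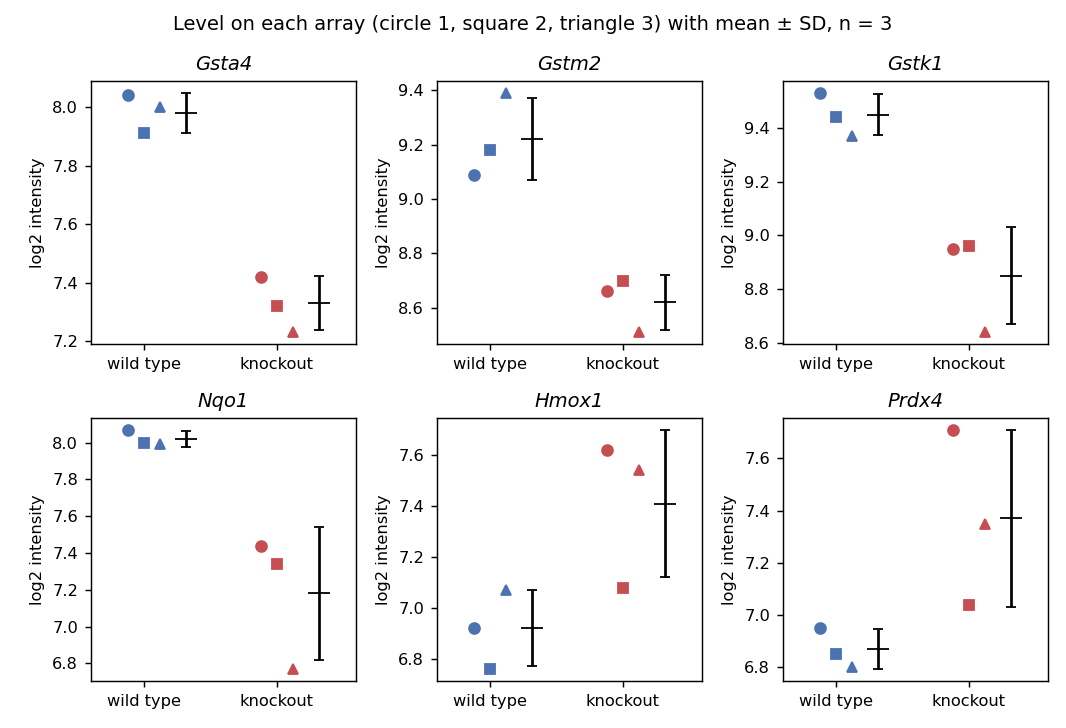
Log2 intensity of 6 genes on each of the 6 arrays (circle, array 1; square, array 2; triangle, array 3), with the mean ± SD of 3 arrays per genotype; each panel has its own vertical range, which does not start at 0. Gsta4, Gstm2, Gstk1 and Nqo1 are lower on every knockout array, and Hmox1 and Prdx4 are higher on every knockout array, with knockout array 2 of Hmox1 at 7.08 against 7.07 for wild type array 3.

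The mu-class genes lie side by side on chromosome 3. In RefSeq's gene order the 7 Gstm genes follow each other without another coding gene between them, as Gstm5, Gstm7, Gstm6, Gstm3, Gstm2, Gstm1 and Gstm4. Of these, 6 were tested, all 6 had a negative change, and in 5 every knockout array was below every wild type array. Of all genes tested, 13.8% were so separated. Gstm7 read 6.40, 6.33 and 6.27 in wild type and 5.96, 6.15 and 5.93 in knockout arrays, with no overlap (change -0.32 ± 0.10, adjusted p = 0.147). Gstm5 read 9.60, 9.34 and 9.29 against 9.18, 9.20 and 9.06, also without overlap (-0.26 ± 0.11, adjusted p = 0.238). Gstm1 had a change of -0.36 ± 0.16, from which knockout array 3 at 9.63 stood apart with 10.18 and 10.23 in the others. Without knockout array 3 its change was -0.16. Of the 2 Gstm genes tested outside the list, Gstm4 had a change of -0.47 ± 0.16 and Gstm3 of -0.28 ± 0.15. The flanking genes Eps8l3 and Ampd2 had changes of -0.15 ± 0.14 and 0.02 ± 0.16. The mu-class genes are close in sequence, and the sources used here do not say which of them each probe can bind, so their changes are not taken as independent.

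Gstz1, a zeta-class transferase of tyrosine breakdown, read 8.71, 8.98 and 9.03 in wild type and 8.69, 8.67 and 8.25 in knockout arrays. The groups were separated by 0.02 only (change -0.37 ± 0.14, adjusted p = 0.223), and the change was -0.22 without knockout array 3. Gstp1, the pi-class transferase, read 10.74, 10.64 and 10.61 against 10.11, 10.71 and 10.42, so that knockout array 2 lay within the wild type range. Its change was -0.25 ± 0.14, which was -0.40 without knockout array 2 and -0.10 without knockout array 1. The 2 probe sets shared by Gstp1 and Gstp2, which were not tested, had changes of -0.21 and -0.19. The microsomal transferase Mgst3 was at -0.29 ± 0.13, Gstt1 at -0.14 ± 0.17 and the omega-class Gsto1 at -0.12 ± 0.11. Mgst1, a microsomal transferase with peroxidase activity, was at 0.04 ± 0.15, with knockout array 1 above and knockout array 3 below all wild type arrays.

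**Figure D3:**
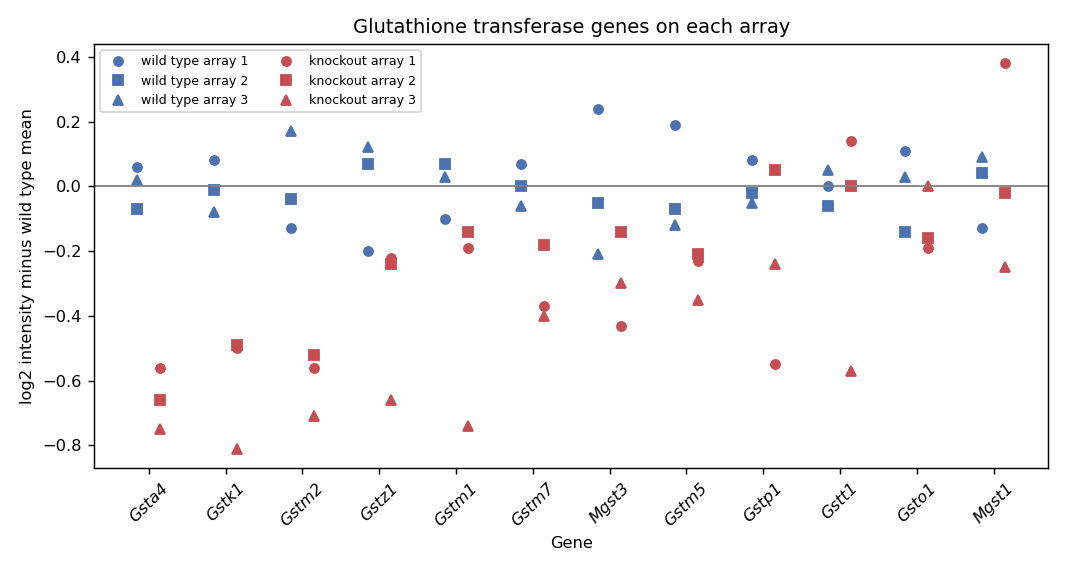
Log2 intensity of the 12 glutathione transferase genes on each array, minus the gene's wild type mean, ordered by their change (blue, wild type; red, knockout; symbols give the array number). In Gsta4, Gstk1 and Gstm2 all 3 knockout arrays lie clear of the wild types, whereas Gstt1 and Gstm1 owe most of their change to knockout array 3.

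Nqo1 and Hmox1, which are commonly read as NRF2 targets, differed in opposite directions. Nqo1 is a quinone reductase. Its levels were 8.07, 8.00 and 7.99 in wild type arrays and 7.44, 7.34 and 6.77 in knockout arrays, the widest gap between genotypes among the members. Its change of -0.84 ± 0.17 (1.79-fold lower) was the largest of the 34 in size but missed the threshold (adjusted p = 0.0593), and it ranged from -0.97 to -0.63 over the 15 settings. It passed in 4 of them, which were array weights and the fits without any 1 knockout array.

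Hmox1, heme oxygenase 1, breaks down heme and is abundant in macrophages that take up red cells. It read 6.92, 6.76 and 7.07 in wild type and 7.62, 7.08 and 7.54 in knockout arrays. Knockout array 2 exceeded the highest wild type array by 0.01, so that only arrays 1 and 3 stood clearly apart. The change was 0.50 ± 0.15 (1.41-fold higher, adjusted p = 0.144), 0.67 with an adjusted p of 0.024 without knockout array 2, and 0.39 without knockout array 1.

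The other members at an unadjusted p under 0.05 and higher in the knockouts were Gpx8, Prdx4 and Sod3, whose products work in the secretory pathway or outside the cell. Gpx8 is a peroxidase anchored in the endoplasmic reticulum, and it read 7.83, 7.87 and 7.88 in wild type and 8.87, 7.80 and 8.52 in knockout arrays. Knockout array 2 lay below every wild type array, and arrays 1 and 3 lay far above them. The change was 0.54 ± 0.23 (adjusted p = 0.262), 0.84 (adjusted p = 0.0131) without knockout array 2, and 0.30 (adjusted p = 0.379) without knockout array 1.

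Prdx4, the peroxiredoxin of the endoplasmic reticulum, read 6.95, 6.85 and 6.80 in wild type and 7.71, 7.04 and 7.35 in knockout arrays. No knockout array reached down to the wild types. Its change was 0.50 ± 0.16 (adjusted p = 0.15), 0.66 (adjusted p = 0.0332) without knockout array 2, and 0.33 without knockout array 1. Sod3, the extracellular superoxide dismutase, read 6.87, 7.14 and 7.16 against 7.74, 7.23 and 7.34. The groups did not overlap, with knockout array 2 only 0.07 above wild type array 3 (change 0.38 ± 0.15, adjusted p = 0.216), and the change was 0.23 without knockout array 1.

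Without knockout array 2, 3 members passed the threshold as higher (Gpx8, Prdx4 and Hmox1) and 4 as lower (Nqo1, Gsta4, Gstk1 and Gstm2). Of all genes, 2.57% and 3.6% did so (6.17% in all). With all arrays only Gsta4 and Gstm2 passed, and the array left out here is the knockout nearest to the wild types. Marker genes of other cells also differed between the arrays. All 10 macrophage markers had positive changes (0 past the adjusted threshold, 8 without overlap), and their mean deviation from wild type was 1.21, 0.36 and 0.40 in knockout arrays 1, 2 and 3. Their summed intensity was 2513 to 2813 in wild type and 3450 to 6453 in knockout arrays, and 0 markers were at 0. All 8 fibroblast markers had positive changes (0 past the threshold, 4 without overlap), with means of 0.85, 0.16 and 1.23 and sums of 11910 to 13050 against 13380 to 22010. All 7 tendon markers were positive too (0 past the threshold), with means of 1.25, 0.31 and 0.35. The 8 endothelial markers had a median change of -0.00, but their means were 0.16, 0.26 and -0.33 in knockout arrays 1, 2 and 3, lowest in array 3. Among the knockouts, the means of the macrophage and tendon lists were highest in array 1 and alike in arrays 2 and 3. The mean of the fibroblast list was lowest in array 2. Single markers were less uniform. Cd68, Lyz2 and Ctss were higher in knockout array 3 than in array 2, Adgre1 was about equal, and the other macrophage markers were lower. Postn (8.22 in knockout array 2 and 12.18 in array 3), Lum, Col1a1, Col1a2 and Col3a1 were higher in array 3. Pdgfra was about equal in these arrays, and Dcn and Dpt were lower in array 3. The part of these cells in the levels of Hmox1, Gpx8, Prdx4 and Sod3 was not tested.

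**Figure D4:**
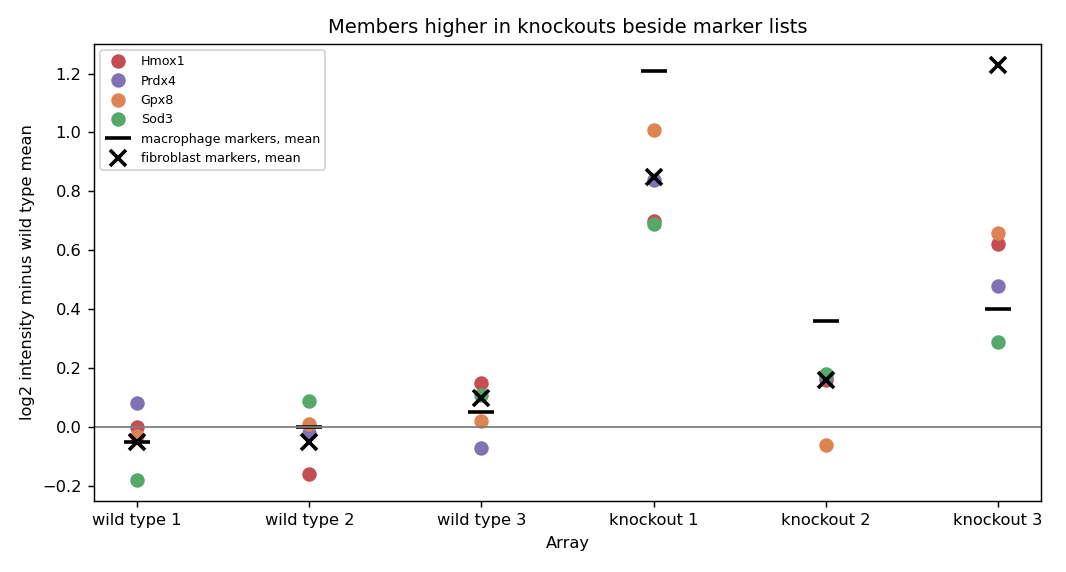
Log2 intensity of Hmox1, Prdx4, Gpx8 and Sod3 on each array, minus the gene's wild type mean (coloured circles), beside the mean deviation of 10 macrophage markers (bars) and 8 fibroblast markers (crosses). Knockout arrays 1 and 3 are above array 2 for all 4 genes and clearly so for the mean of the fibroblast markers. The mean of the macrophage markers is at 1.21 in array 1 and at 0.36 and 0.40 in arrays 2 and 3. Not every marker of either list follows its mean.

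Fat cell markers also differed between arrays. Of 7 adipocyte markers tested, 6 had negative changes (0 past the threshold, 1 without overlap), and their mean stood at -0.67, 0.29 and 0.38 in wild type arrays 1, 2 and 3 and at -0.65 to -0.46 in the knockouts. Their summed intensity ran from 3539 to 5469 in wild type and from 3862 to 4234 in knockout arrays. Wild type array 1 was at the knockout level for these markers. Among the transferases and Nqo1, it had the highest wild type reading for Gsta4, Gstk1, Gstm5, Gstm7, Gsto1, Gstp1, Mgst3 and Nqo1. It had the lowest for Gstm2, Gstm1, Gstz1 and Mgst1, and the middle one for Gstt1. The part of fat cells in these levels was not tested.

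The superoxide dismutases inside the cell, Sod1 and Sod2, had smaller changes than the extracellular Sod3. Sod2, the manganese dismutase of mitochondria, read 10.66, 10.69 and 10.60 in wild type and 10.54, 10.88 and 10.55 in knockout arrays, with the wild types inside the knockout range and a change of 0.01 ± 0.11. Sod1, the cytosolic copper-zinc dismutase, was at -0.23 ± 0.11, with the knockout arrays at 9.29 to 9.62 below the wild types at 9.68 to 9.77. The adjusted p was 0.307 for Sod1 and 0.98 for Sod2.

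Of the peroxidases, Gpx3 is secreted into the plasma and lies on chromosome 11 near Sparc itself, with 8 coding genes between them in RefSeq's order. It read 11.49, 11.69 and 11.65 in wild type and 11.88, 11.51 and 10.90 in knockout arrays. The knockout arrays were on both sides of the wild types, with a change of -0.18 ± 0.21, which was 0.09 without knockout array 3 and -0.40 without knockout array 1. Gpx1, the main cytosolic glutathione peroxidase, was at 0.10 ± 0.13. Gpx4, which reduces lipid hydroperoxides in membranes, was at -0.17 ± 0.10 with no overlap between the genotypes, and its other probe set gave -0.19. Gpx7, a relative of Gpx8 in the endoplasmic reticulum, was at -0.19 ± 0.09, again with no overlap (6.72 to 6.75 against 6.46 to 6.63). Gpx7 and Gpx8 thus had changes of opposite sign.

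None of the remaining peroxiredoxins tested passed the threshold, and Prdx1 and Prdx2 were close to the wild type level by their brightest probe sets. Prdx3, the mitochondrial one, was at -0.25 ± 0.11, without overlap (10.47 to 10.55 against 10.03 to 10.45, adjusted p = 0.29). Prdx1, in the cytosol, read 10.48, 10.36 and 10.39 in wild type and 10.48, 10.40 and 10.26 in knockout arrays, a change of -0.03 ± 0.09. The other Prdx1 probe set, with a mean of 10.20, had a change of -0.15 ± 0.12 and overlapped between the genotypes. Prdx2, which is abundant in red cells, read 10.39, 10.07 and 10.13 against 10.39, 10.29 and 10.18, a change of 0.09 ± 0.11. Its other probe set was dimmer and had the opposite sign (-0.12 ± 0.11), and both probe sets overlapped between the genotypes.

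In the thioredoxin system, Txnrd2, the mitochondrial thioredoxin reductase, read 6.21, 6.07 and 6.10 in wild type and 5.81, 6.04 and 5.80 in knockout arrays. Knockout array 2 was 0.03 below the lowest wild type array (change -0.24 ± 0.10, adjusted p = 0.27). Txn1, the cytosolic thioredoxin, read 10.54, 10.53 and 10.53 against 10.83, 10.48 and 10.55, with a change of 0.09 ± 0.10. The very even wild type readings contrasted with a knockout spread of 0.18 (SD, n = 3). Mitochondrial Txn2 was at -0.03 ± 0.09 and the cytosolic reductase Txnrd1 at -0.11 ± 0.09.

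Glutathione synthesis and recycling showed no call, and in 0 of the 4 genes were the genotypes separated. Gclm, the modifier subunit of glutamate-cysteine ligase, read 8.02, 8.16 and 8.12 in wild type and 7.97, 8.04 and 7.67 in knockout arrays, where knockout array 3 was low (change -0.21 ± 0.12). Gclc, the catalytic subunit of the same enzyme, was at 0.07 ± 0.09 and glutathione synthetase (Gss) at -0.15 ± 0.09. Glutathione reductase (Gsr), which recycles oxidised glutathione, read 8.08, 8.26 and 8.12 against 8.67, 8.24 and 8.06. Its change of 0.17 ± 0.15 rested on knockout array 1, without which it was -0.01.

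Around the members, 8 further lists of pathway genes held 76 tested genes, of which 1 fell and 1 rose past the threshold (2.63%, against 0.995% of all genes). The gene that fell was Msrb1, a selenoprotein that repairs oxidised methionine, at 10.71, 10.67 and 10.89 in wild type and 10.02, 10.11 and 10.04 in knockout arrays (change -0.70 ± 0.09, adjusted p = 0.014). The gene that rose was Anpep, an aminopeptidase of the cell surface that cleaves the breakdown product of extracellular glutathione, at 7.81, 7.88 and 7.98 against 9.38, 8.53 and 8.98 (change 1.07 ± 0.19, adjusted p = 0.0426). Msrb1 lost its call without any 1 wild type array (adjusted p = 0.0712 to 0.107). Anpep lost its call without any 1 wild type array, without knockout array 3, after median centring and without the variance trend (adjusted p = 0.0502 to 0.203). Anpep is also expressed by myeloid cells and fibroblasts, whose markers had positive changes, and their part was not tested.

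No regulator of NRF2 passed in the list of 8. Nfe2l2, the NRF2 gene, was at -0.10 ± 0.09, Sqstm1 at -0.14 ± 0.12, and Keap1, which targets NRF2 for degradation, at -0.32 ± 0.10 with no overlap between the genotypes (adjusted p = 0.152). In the list of catalase, sulfiredoxin, sestrins and thiol repair, 9 of 13 genes were negative and Park7 was at -0.39 ± 0.09 (adjusted p = 0.0766). Catalase (Cat) was at -0.26 ± 0.18. For NADPH supply, 8 of 12 genes were negative and 0 passed, with malic enzyme Me1 at -0.46 ± 0.13 and the mitochondrial isocitrate dehydrogenase Idh2 at -0.41 ± 0.12.

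Among 8 glutaredoxins and thioredoxin partners, 0 passed, with glutaredoxin Glrx at 0.64 ± 0.15 (adjusted p = 0.0826) and Glrx5 at -0.29 ± 0.11. In cystine uptake and glutathione breakdown, 6 of 8 genes were negative, with Oplah, which opens oxoproline, at -0.41 ± 0.10. Of 13 other transferases and detoxifying enzymes, 0 passed, with a median change of -0.01 and 8 negative and 5 positive changes. The genotypes were separated in 15.4% of them, against 25% of all genes. Carbonyl reductase Cbr1 at -0.50 ± 0.10 (adjusted p = 0.0643) and Gstm4 had the smallest p. Outside the Gstm genes, Gsta3 was at -0.58 ± 0.36, and Gstt2, Gstt3, Gstcd, Gsto2 and Mgst2 lay between -0.08 and 0.14. Of 7 genes of heme breakdown and iron storage, 0 passed, with the transferrin receptor Tfrc at -0.29 ± 0.10 and the iron exporter Slc40a1 at 0.30 ± 0.15. Of 7 superoxide-producing oxidase genes, 6 had positive changes and 0 passed, with Nox4 at 1.36 ± 0.35 (adjusted p = 0.107) and Ncf1, a phagocyte oxidase subunit, at 0.37 ± 0.12. Nox4 read 6.11 to 6.16 in wild type and 8.32, 6.58 and 7.57 in knockout arrays, again with knockout array 2 nearest to the wild types.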

How the data were processed

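The authors deposited 1 column of probe set intensity per array on a linear scale. The submitters' processing notes name RMA and Affymetrix Expression Console (version 1.3.0.187). RMA corrects background, normalizes between arrays and compresses differences between low values. There are no detection calls, and precision is limited by the number of arrays. The sources used here give no genome build for the probe sets. Of 35556 probe sets, 21789 had 1 gene symbol in the platform annotation, which can be old, 1621 had several (not used) and 12146 were unnamed.

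The log2 of the intensity was taken with no offset, although the design had assumed log2 values. Genes dimmer on average than the lowest 25% of probe sets (3.90) were left out. Genotypes were compared over all genes with limma 3.58.1 in R 4.3.3 (lmFit, eBayes with a variance trend, two-sided). On 10 simulated data sets for this comparison (16487 genes, 200 changed), it called 27.8% of those with a true log2 change of 0.5 and 81.7% of those with a change of 1. The members and lists were chosen with earlier results of these data known. Arrays are printed singly for members past either p of 0.05, for the largest change and highest mean in each of 7 role groups, and for probe sets that differ in sign; of the other lists, the 2 genes with the smallest p are named. Cat, Nfe2l2, Gstm3, Eps8l3 and Ampd2 were named after their values were seen. Alternatives were 2 other dim filters, 2 scalings, 2 variance models, the mean over probe sets, a replicate block, array weights, and leaving out each array.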

Additional observations from a re-analysis of the deposited data

How the results depend on the processing

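Direction held for Gsta4, Gstm2, Gstk1 and Nqo1 in all 15 alternatives. The count of members called was 2, and it was 1 with the replicate block, with no variance trend and after median centring, 4 with array weights, and 0 to 7 when 1 array was left out (0 without wild type array 1, 2 or 3, and 7 without knockout array 2). The count over all genes was 164, and it was 103 after median centring, 329 with array weights, 123 with the replicate block, and 27 to 1017 with 1 array left out. The deviations of same-numbered arrays had correlations of 0.01, 0.08 and -0.02. These values show no pairing by number, but 3 arrays per genotype cannot exclude one, and the labels give no litter. Members without overlap numbered 15 to 17 with all arrays and 17 to 24 with 1 array left out, where fewer arrays separate more easily. The share of all genes without overlap is given for the main setting only, at 25%. The median change of all members lay between -0.20 and -0.11 over all settings. The median of all genes moved by 0.04 at most. With 3 arrays per genotype, changes of about 0.5 are often missed.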
